A study of Mus musculus with 2 samples.

Results

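The genes described here carry GABA and glycine signalling, the fast inhibitory transmission of the spinal cord and brain. Their symbols were fixed as a list of 29 and matched by Ensembl identifier, and all 29 were found among the 43346 mouse genes of the gene tables. Libraries were made from RNA of neural tubes of B6NCrl mouse embryos of embryonic day 12.5, of both sexes and described as healthy, with no treatment. The labels give 1 group of 2 biological replicates, pooled from 120 embryos (replicate 1) and 88 embryos (replicate 2), and each library used 10 ng of RNA longer than 200 nucleotides. The whole dissected tissue was sequenced, so a level is a mean over its cells, and fewer cells of a type cannot be told apart from less RNA per cell. With 1 group there is no contrast between conditions to test. Genes were therefore compared within each library, and the pools with each other, as a description without p-values.

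GABA is made from glutamate by glutamic acid decarboxylases, loaded into vesicles by a transporter that also takes glycine, released, and taken up again by transporters of the cell membrane. It opens chloride channels built from GABA-A receptor subunits and acts more slowly through the G protein-coupled GABA-B receptor, while glycine opens chloride channels built from glycine receptor subunits. Which way chloride flows depends on the cell's chloride content, which Slc12a2 raises and Slc12a5 lowers. In immature neurons import generally outweighs export, and GABA then depolarises.

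Mouse genes held 31610805 expected counts in replicate 1 and 33530172 in replicate 2. All 10 neural tube markers examined were at 1 TPM or more (the deposited transcript level, corrected for length and depth) in both libraries, among them Tubb3 (1004 and 1030 TPM) and Nes (136 and 114 TPM). Of 8 forebrain genes, including the Dlx factors of forebrain GABA neurons, 3 reached 1 TPM in both libraries, the highest being Dlx2 (1.13 and 1.31 TPM) and Dlx1 (1.02 and 1.35 TPM), and Nkx2-1 was listed at 0 in both. Values below are given for replicate 1 first, and mean ± SD is over the 2 libraries (n = 2).

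A gene is called detected here where it reached 1 TPM in both libraries. Of the 29 genes, 23 were detected, against 35.0% of all mouse genes and 62.1% of protein-coding genes. The other 6 stayed under 1 TPM in both libraries. The median member stood at 4.65 and 4.85 TPM, against 5.50 and 5.66 TPM for all 21474 protein-coding genes. Summed over members, GABA-B receptor genes held 40.5 and 39.3 TPM, synthesis enzymes 54.4 and 44.1 TPM, GABA-A subunits 25.5 and 27.3 TPM, and glycine receptor subunits 25.3 and 25.7 TPM. The member list takes some of the GABA-A subunit genes and some of the transporters, so these sums describe the members and not the whole families.

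**Figure D1:**
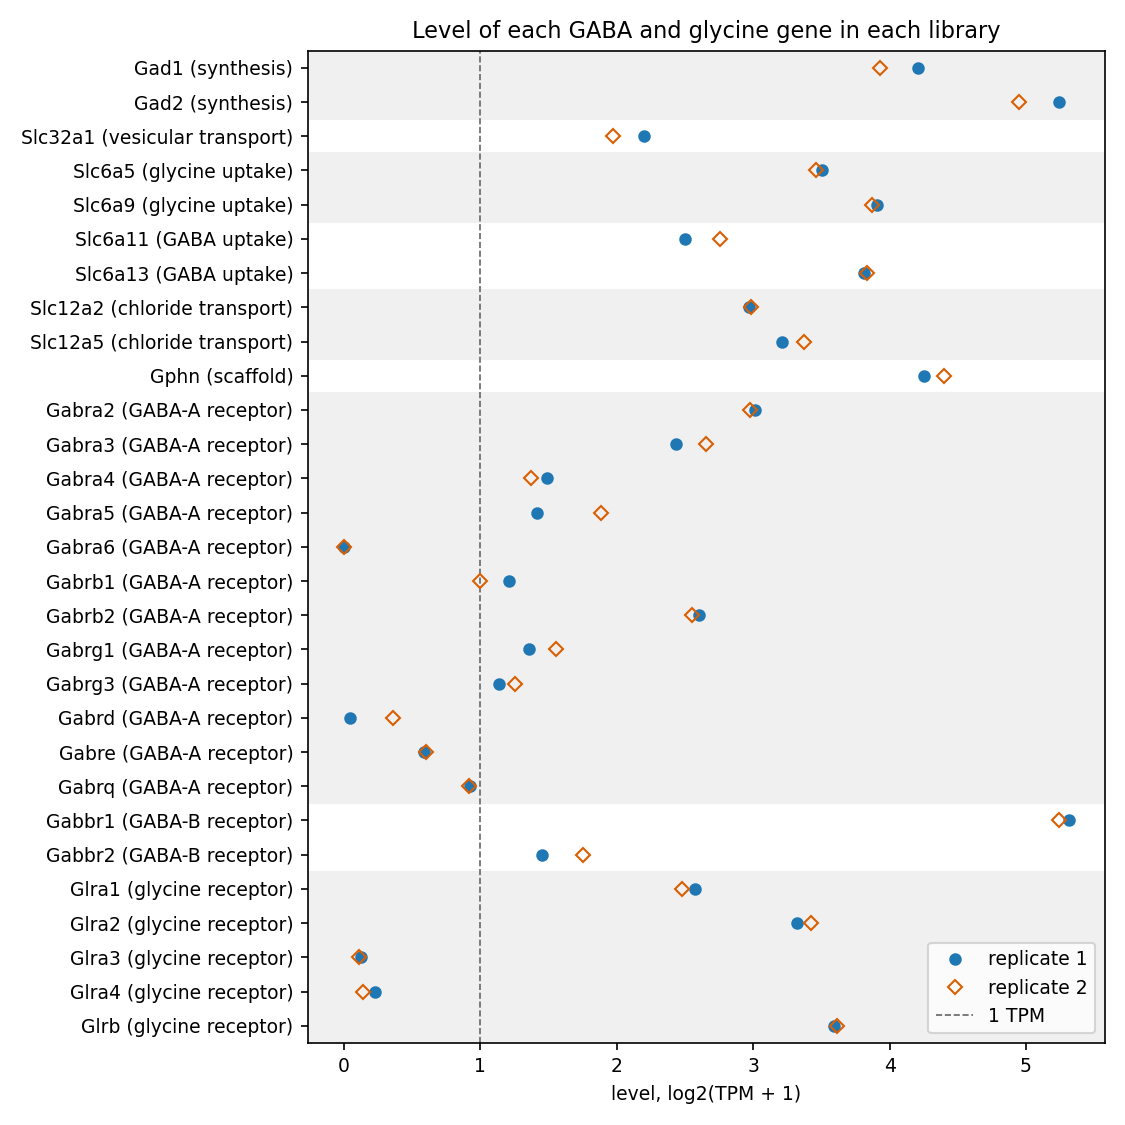
Level of each of the 29 genes on the log2(TPM + 1) axis, grouped by role, with a filled circle for replicate 1 and an open diamond for replicate 2 and a dashed line at 1 TPM. Gabbr1 and Gad2 lie farthest right, and Gabra6, Gabrd, Gabre, Gabrq, Glra3 and Glra4 lie left of the line in both libraries.

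Both synthesis enzymes were present, and Gad2 stood above Gad1. Gad2 (ENSMUSG00000026787, chromosome 2, 22622205 to 22693874, plus strand, GRCm38), the decarboxylase linked to nerve terminals, stood at 36.9 and 29.9 TPM (33.4 ± 4.95). Gad1 (ENSMUSG00000070880, chromosome 2, 70553072 to 70602014, plus strand), which makes GABA throughout the cell, stood at 17.5 and 14.2 TPM (15.9 ± 2.33). Replicate 1 was the higher library for both genes, and the levels of the enzymes did not overlap. Gad2 exceeded Gad1 by 1.03 ± 0.01 on the log2(TPM + 1) scale, a difference larger than the spread between the libraries (1.03 and 1.02).

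The size of that difference rests on how reads were divided among transcript models. For Gad1 the leading model was ENSMUST00000140478, which the later annotation GENCODE M21 labels a processed transcript without a coding region, at 8.93 and 8.81 TPM (51.0% and 62.0% of the gene). The full-length coding model ENSMUST00000094934 was assigned 2.40 and 2.00 TPM (13.7% and 14.1%). The models are nearly the same over most of their length: 2919 of the 2996 bases of the processed model lie in exons of the coding model. The processed model starts with an exon of its own, inside an intron of the coding model, and lacks the exon in which coding starts (position 70563832). A truncated coding model that ends early within the gene, ENSMUST00000130998, held 2.77 and 1.58 TPM (15.8% and 11.1%). Gad1 is known to make a truncated embryonic form by splicing in an exon with a stop codon. The exons below are shown because they separate these models from the full-length one. They are the first exon of the processed model (chr2:70566377-70566453, plus strand) and the coding part of the last exon of the truncated model (chr2:70584420-70584456, plus strand), with its stop codon in capitals, from GENCODE M21 transcripts on GRCm38.
Gad1 processed model, first exon: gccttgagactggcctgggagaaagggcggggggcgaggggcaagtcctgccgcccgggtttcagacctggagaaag
Gad1 truncated model, coding part of the last exon: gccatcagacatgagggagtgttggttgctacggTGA

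Gad2 showed the same kind of division. Its gene level was made up of a short model of 721 bases labelled a processed transcript, ENSMUST00000156728 (21.6 and 15.5 TPM), and of the coding model ENSMUST00000028123 of 5744 bases (15.3 and 14.4 TPM). By expected counts the coding model held most of the gene, 1717 and 1678 against 267 and 199. The short model thus weighs more in TPM than in counts, since TPM divides by length. Of its 721 bases, 589 lie in exons of the coding model, and the remaining 132 open the short model inside an intron of the coding one (chr2:22623304-22623435, plus strand, GENCODE M21). They are shown as the bases that no exon of the coding model shares.
Gad2 short model, own bases: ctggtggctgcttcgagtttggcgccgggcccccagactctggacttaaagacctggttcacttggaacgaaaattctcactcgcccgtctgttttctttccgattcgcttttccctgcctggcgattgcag

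Over protein-coding models alone, Gad2 stood at 15.3 and 14.4 TPM and Gad1 at 7.91 and 4.53 TPM, and the difference was 0.87 and 1.48 on the log2(TPM + 1) scale. From counts per kilobase of each gene's longest model it was 0.54 and 0.56. Gad2 stayed the higher gene under each measure tried, and the mean excess ranged from 0.55 to 1.26.

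Summed over the models of a gene, the vesicular transporter stood below both enzymes, by a margin that depended on the measure. Slc32a1, which fills synaptic vesicles with GABA and glycine and has a single model in the files, stood at 3.60 and 2.92 TPM (3.26 ± 0.48). By gene TPM, Gad2 was 10.2-fold above it in each library and Gad1 4.86-fold and 4.87-fold. Over coding models, which leave out the processed models above, Gad2 was 4.25-fold and 4.93-fold higher and Gad1 2.20-fold and 1.55-fold. For Gad1 that sum includes the truncated model. The full-length coding model of Gad1 alone (2.40 and 2.00 TPM) lay below Slc32a1 in both libraries. The order of Gad1 and Slc32a1 thus rests on how reads were divided among models. From counts per kilobase of the longest model the folds were 5.00 and 5.62 for Gad2 and 3.28 and 3.63 for Gad1. As for both enzymes, replicate 1 was the higher library. Slc32a1 overlaps an exon of the opposite-strand gene Gm14205 (0.91 and 0.64 TPM). Whether the counting took account of strand is not stated in the labels or read-me texts, so reads of such pairs could be shared.

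All 4 members that take up glycine or GABA at the cell membrane were detected. Slc6a9, the glycine transporter known mainly from glia, stood at 14.0 and 13.7 TPM (13.8 ± 0.26). Slc6a5, the glycine transporter of glycinergic neurons, stood at 10.3 and 10.0 TPM (10.2 ± 0.23). The difference between them was 0.41 ± 0.00 on the log2(TPM + 1) scale, and the libraries did not overlap. It was nearly absent over coding models (0.03 and -0.0026, against 0.41 and 0.41 over all models), where Slc6a9 stood at 10.6 and 9.99 TPM, and in counts not corrected for length Slc6a5 was the higher gene (-0.75 and -0.69). Slc6a9 shares exonic bases with B4galt2 on the opposite strand (36.7 and 38.8 TPM). Among its models ENSMUST00000063857 led (6.33 and 7.07 TPM), followed by ENSMUST00000030269 (3.14 and 2.05 TPM). They open with different first exons on chromosome 4, at position 117834506 for the leading model and 117835051 for the other, and have the same coding start.

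Of the GABA transporters, Slc6a13 stood at 13.0 and 13.3 TPM (13.2 ± 0.20) and Slc6a11, known from astrocytes, at 4.65 and 5.76 TPM (5.21 ± 0.78). By gene TPM their levels did not overlap, with Slc6a13 2.80-fold and 2.31-fold higher. Models labelled retained intron held part of Slc6a13, and over its coding models (8.75 and 8.43 TPM) it was 1.88-fold and 1.46-fold higher. From counts per kilobase of the longest model it was 2.22-fold and 1.81-fold higher. In counts not corrected for length, Slc6a13 had 448 and 469 against 367 and 472 for Slc6a11, and the order differed between the libraries. The longest model is 2234 bases for Slc6a13 and 4066 for Slc6a11, so these counts alone do not order their levels. Slc6a13 is known from the meninges as well as from neural tissue. Meningeal and pericyte markers were present, 11 of 11 at 1 TPM or more and summing to 928 and 951 TPM, led by Col3a1 (397 and 420 TPM) and Col1a1 (181 and 173 TPM). Their part in the level of Slc6a13 was not tested. Of radial glia and astrocyte markers 7 of 10 reached 1 TPM in both libraries (sums of 3061 and 3147 TPM, led by Fabp7 and Vim), and those under 1 TPM were the mature astrocyte markers S100b (0.73 and 0.77), Aqp4 (0.44 and 0.32) and Gfap (0.06 and 0.10 TPM). No choroid plexus marker of 6 reached 1 TPM in both libraries (sums of 1.09 and 2.05 TPM, the highest being Clic6 at 0.47 and 0.54 TPM and Folr1 at 0.06 and 0.83 TPM).

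The chloride transporters stood close together, and which was higher depended on the measure. Slc12a2 (NKCC1, ENSMUSG00000024597), which brings chloride into the cell, had 875 and 918 expected counts and stood at 6.85 and 6.93 TPM (6.89 ± 0.06). Slc12a5 (KCC2, ENSMUSG00000017740, chromosome 2), the neuronal exporter, had 797 and 839 counts and stood at 8.27 and 9.35 TPM (8.81 ± 0.76). By gene TPM Slc12a5 was the higher in both libraries, and the log2(TPM + 1) ratio of Slc12a2 over Slc12a5 was -0.31 ± 0.10 (-0.24 and -0.38). That order turned when only protein-coding models were counted. Slc12a2 has a single model in the files, whereas the coding model of Slc12a5, ENSMUST00000099092, held 5.71 and 5.35 TPM (69.1% and 57.2% of its gene). A model labelled a retained intron at the 3′ end, ENSMUST00000137302, held 2.03 and 2.96 TPM. Over coding models the ratio was 0.23 and 0.32. In CPM, which scales counts by the library total and not by length, it was 0.13 and 0.12, and from counts per kilobase of the longest model 0.02 and 0.01, so the measures gave no single order.

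**Figure D2:**
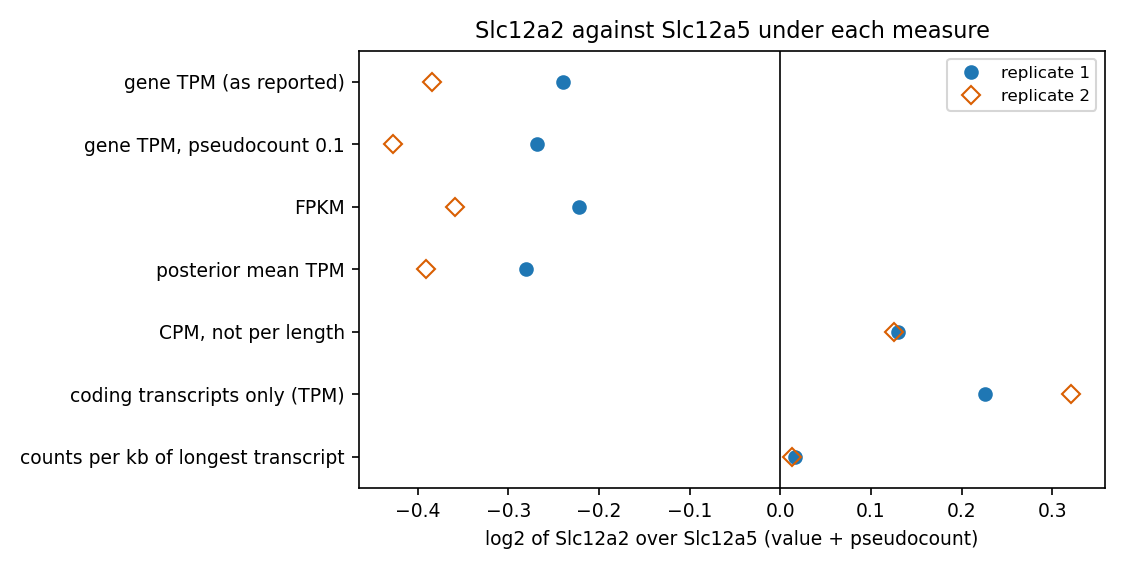
Log2 ratio of Slc12a2 over Slc12a5 in each library (filled circle, replicate 1; open diamond, replicate 2) under 7 measures, with a vertical line where the genes are equal. With gene TPM, a pseudocount of 0.1, FPKM and posterior mean TPM the points lie left of the line, and with CPM, coding models and counts per kilobase of the longest model they lie right of it.

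Slc12a5 has alternative first exons. The coding model opens at position 164967983 and held 673 and 654 counts. A short processed transcript, ENSMUST00000124372, opens upstream at 164960816 and held 0.00 and 7.84 counts (0.00 and 1.05 TPM). The coding model is 6024 bases long and the short one 462, and in TPM the coding model held 5.71 and 5.35. The files hold no coding model that opens upstream, so these counts do not tell how much each start was used. Sequence at both starts is shown because the models open there. The windows are the 250 bases before the RefSeq starts nearby, and each holds the GENCODE start near its 3′ end. They are RefSeq windows on GRCm38.p6, plus strand, at chr2:164960596-164960845 (upstream) and chr2:164967738-164967987 (downstream). Capitals mark GGGCGG, a GC box, searched on both strands.
Slc12a5 upstream start: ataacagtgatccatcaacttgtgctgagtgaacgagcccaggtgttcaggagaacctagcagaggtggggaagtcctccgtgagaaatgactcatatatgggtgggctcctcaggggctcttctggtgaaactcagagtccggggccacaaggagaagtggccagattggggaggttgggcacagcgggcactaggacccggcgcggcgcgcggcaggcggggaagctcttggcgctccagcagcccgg
Slc12a5 downstream start: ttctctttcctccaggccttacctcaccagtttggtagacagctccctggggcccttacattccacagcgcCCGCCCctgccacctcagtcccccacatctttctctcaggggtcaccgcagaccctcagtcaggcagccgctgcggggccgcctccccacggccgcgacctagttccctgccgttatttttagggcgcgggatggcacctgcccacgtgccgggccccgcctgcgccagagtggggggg

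The downstream window held 1 GC box and the upstream window 0, and 32.7% of all 32851 windows of this length in the table held at least 1. Neither window held TATAAA on either strand, which 12.4% of windows did. The windows had a GC content of 61.2% (upstream) and 67.2% (downstream), with 13 and 16 CpG dinucleotides.

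The scaffold gene Gphn, whose product gephyrin anchors glycine and GABA-A receptors at synapses, stood at 18.0 and 20.1 TPM (19.1 ± 1.48). Both of its models are coding, with ENSMUST00000110388 at 12.6 and 13.2 TPM and ENSMUST00000052472 at 5.45 and 6.89 TPM.

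Among GABA-A subunits, 8 of 12 reached 1 TPM in both libraries, and Gabra2, Gabrb2 and Gabra3 were the highest. The alpha subunits form the GABA binding site together with the beta subunits. Gabra2 (ENSMUSG00000000560, chromosome 5) stood at 7.06 and 6.89 TPM, Gabra3 (ENSMUSG00000031343, chromosome X) at 4.40 and 5.31 TPM, Gabra5 at 1.67 and 2.69 TPM and Gabra4 at 1.80 and 1.58 TPM. Gabra2 lay above Gabra3 in both libraries, and Gabra3 above Gabra5 and Gabra4, while Gabra5 and Gabra4 overlapped. Gabra6, known from mature cerebellar granule cells, was listed at 0 counts in both libraries, so that a level of 0.0949 CPM (replicate 1) or 0.0895 CPM (replicate 2), equal to 3 counts, could have gone unseen. The only model of Gabra2 in the files is labelled subject to nonsense-mediated decay in GENCODE M21, so a level from coding models alone could not be had for it.

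Of the beta subunits, Gabrb2 stood at 5.07 and 4.85 TPM and Gabrb1 at 1.31 and 1.00 TPM, without overlap. The gamma subunits, which place receptors at synapses, were low, with Gabrg1 at 1.56 and 1.94 TPM and Gabrg3 at 1.20 and 1.39 TPM. For Gabrg3 the leading model was labelled a retained intron (57.5% and 57.2% of the gene). The remaining subunits, known from extrasynaptic receptors or from a few nuclei, were under 1 TPM, with Gabrq (theta) at 0.90 and 0.89, Gabre (epsilon) at 0.50 and 0.52 and Gabrd (delta) at 0.03 and 0.28 TPM. Gabrd rests on 1 and 7 counts.

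GABA-A subunit genes lie in clusters, and members of a cluster did not stand at a common level. On chromosome 5 Gabra2 (6.97 ± 0.12 TPM) lies between Gabrg1 (1.75 ± 0.27 TPM) and the neighbours Gabra4 (1.69 ± 0.16 TPM) and Gabrb1 (1.16 ± 0.22 TPM), which are transcribed away from each other and overlap by 196 bases in GENCODE M21. The Gabrb1 model of the files opens beyond that overlap, at position 71699932. On chromosome X Gabra3 (4.86 ± 0.64 TPM) lies between Gabre (0.51 ± 0.01 TPM) and Gabrq (0.89 ± 0.01 TPM). On chromosome 11 Gabra6, at 0, lies 98684 bases from Gabrb2 (4.96 ± 0.16 TPM). Members of the chromosome 7 cluster, Gabrg3 (1.29 ± 0.13 TPM) and Gabra5 (2.18 ± 0.72 TPM), are 20483 bases apart, and Gabra5 was higher in both libraries.

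The GABA-B receptor works as a pair of unlike subunits, Gabbr1 binding GABA and Gabbr2 coupling to G proteins, and the levels of the pair were far apart. Gabbr1 (ENSMUSG00000024462, chromosome 17, 37045966 to 37075067, plus strand) was the highest of the 29 genes at 38.7 and 36.9 TPM (37.8 ± 1.30). Gabbr2 (ENSMUSG00000039809, chromosome 4, 46662305 to 46991873, minus strand) stood at 1.73 and 2.37 TPM (2.05 ± 0.45). Gabbr1 was 22.4-fold and 15.6-fold higher by gene TPM and 15.0-fold and 9.99-fold higher by counts per kilobase of the longest model, beyond the spread between the libraries under each measure. The leading Gabbr1 model was the long coding form ENSMUST00000025338 (17.1 and 15.2 TPM), which opens at the upstream start. A shorter form that opens downstream at position 37050631 with its own coding start, ENSMUST00000172792, was assigned 6.78 and 6.22 TPM. A model of 3 exons near the start of the gene, ENSMUST00000172789, was assigned 6.83 and 8.47 TPM but 185 and 238 counts, against 1746 and 1614 for the long form. The shorter form alone lay above all of Gabbr2 in both libraries.

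**Figure D3:**
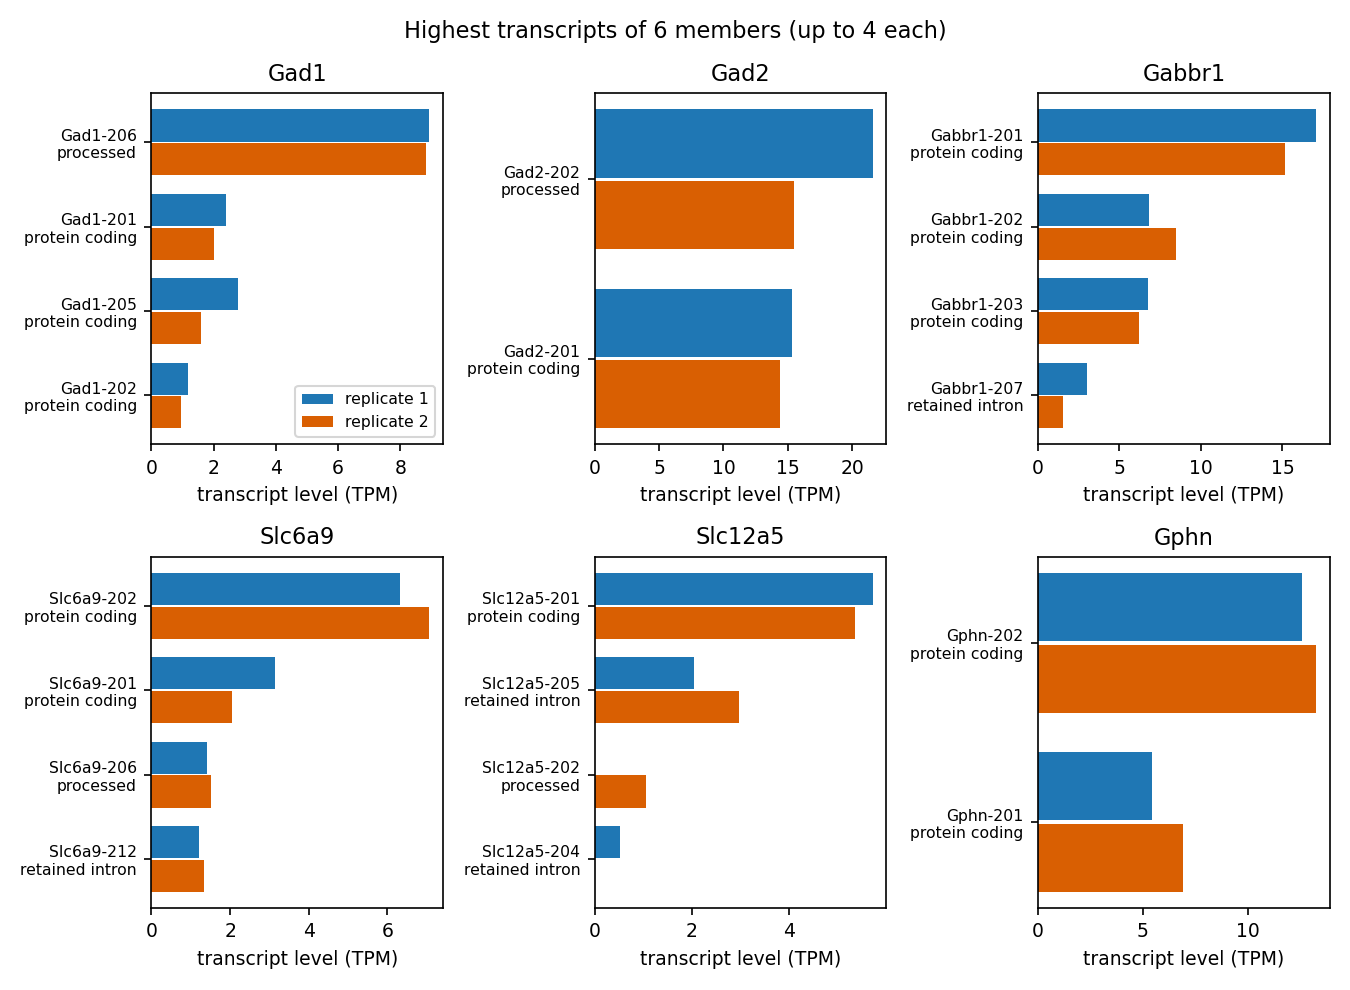
Level in TPM of up to 4 highest transcript models of 6 genes, with a bar for each library and the model's GENCODE M21 name and label on the axis. Models labelled processed lead for Gad1 and Gad2, and coding models lead for Gabbr1, Slc6a9, Slc12a5 and Gphn.

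Among glycine receptor subunits Glrb and Glra2 led. Glrb (ENSMUSG00000028020, chromosome 3), the beta subunit that binds gephyrin, stood at 11.1 and 11.2 TPM (11.2 ± 0.12). Glra2 (ENSMUSG00000018589, chromosome X), the alpha subunit known as the fetal form, stood at 9.02 and 9.72 TPM (9.37 ± 0.49). Glra1, the alpha subunit that predominates in the adult cord, stood at 4.94 and 4.56 TPM (4.75 ± 0.27). Glra2 lay above Glra1 in both libraries, by 0.85 ± 0.14 on the log2(TPM + 1) scale (0.75 and 0.95), and each measure tried kept that direction. Glra3 (0.09 and 0.08 TPM) and Glra4 (0.17 and 0.10 TPM) rest on 3 to 6 counts a library.

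The median glycine receptor subunit stood above the median GABA-A subunit of the list, at 4.94 and 4.56 against 1.44 and 1.49 TPM. On the log2(TPM + 1) scale the GABA-A median minus the glycine receptor median came to -1.23 ± 0.09 (-1.29 and -1.16). Single subunits overlapped widely: Gabra2 lay above Glra1 in both libraries, and Glra3 and Glra4 lay below each listed GABA-A subunit other than Gabrd and Gabra6.

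Ordered by mean TPM, 18 of the 28 neighbouring pairs were separated, in that both libraries of the higher gene lay above both of the lower gene. The 10 pairs that were not separated included Glra2 and Slc12a5, Gabra2 and Slc12a2, the run from Slc6a11 through Gabrb2 and Gabra3 to Glra1, and the run from Gabra5 through Gabbr2 and Gabrg1 to Gabra4.

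The pools were compared through counts and TPM. Of the 23 genes whose mean reached 1 TPM, 0 were over 1.5-fold apart on the log2(TPM + 1) scale, against 3.41% of the 15735 genes at that level, and 12 were higher and 11 lower in replicate 2. Of all genes at that level 58.5% were higher and 41.2% lower. The median log2 ratio of replicate 2 over replicate 1 was 0.01 for the 23 genes and 0.03 for all genes at that level. A 95% exact binomial interval of the count ratio, which covers counting error only, lay above 0 for 4 genes (Slc6a11, Gphn, Gabra5 and Gabbr2) and below 0 for 4 (Gad1, Gad2, Slc32a1 and Gabbr1). Over all genes at that level such intervals lay above 0 for 18.8% and below 0 for 14.5%, or for 33.4% in either direction. The 8 of 23 members are near that share. The deposited TPM intervals did not overlap between the libraries for 3 of the 23 genes (Gad2, Slc6a11 and Gabra5), against 14.3% of all.

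Gabra5 had the largest ratio. Its counts were 85.0 and 142, a log2 count ratio of 0.66 (0.26 to 1.06). Gabbr2 had 194 and 276 counts and a ratio of 0.42 (0.15 to 0.70), and Slc6a11 had 367 and 472 counts and a ratio of 0.28 (0.08 to 0.48). Gad1 (-0.19, -0.33 to -0.05), Gad2 (-0.17, -0.26 to -0.07) and Slc32a1 (-0.33, -0.64 to -0.02), the genes that make and package GABA, were all lower in replicate 2. For Gad2 the TPM ratio (-0.29) lay farther from 0 than the count ratio, and its deposited effective length, by which TPM divides, was 2705 bases in replicate 1 and 3044 in replicate 2.

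**Figure D4:**
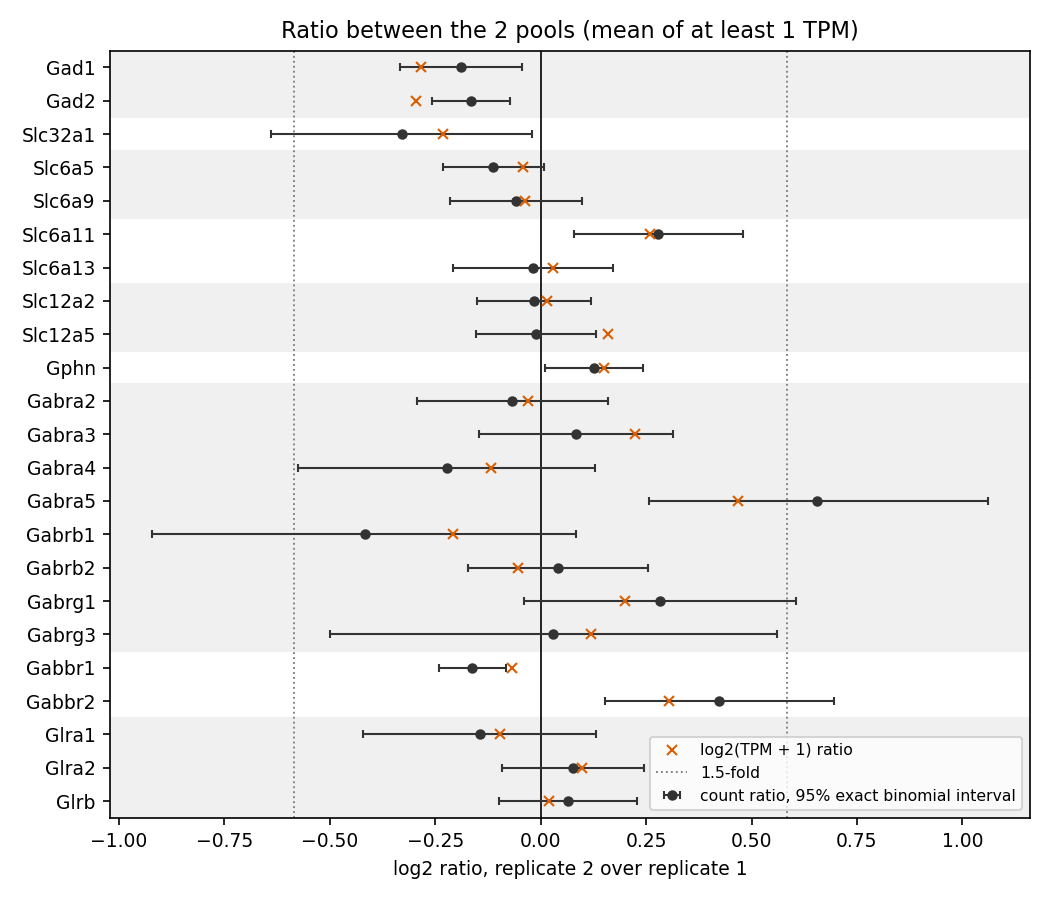
Log2 ratio of replicate 2 over replicate 1 for the 23 genes whose mean reached 1 TPM, with points and bars for the count ratio and its 95% exact binomial interval, crosses for the log2(TPM + 1) ratio and dotted lines at 1.5-fold. Intervals of Gad1, Gad2, Slc32a1 and Gabbr1 lie left of 0 and those of Slc6a11, Gphn, Gabra5 and Gabbr2 right of 0.

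Other cell types differed between the pools as well. Sensory ganglion markers were higher in replicate 2 for 9 of 9 genes whose mean reached 1 TPM (10 of 11 markers were matched), with a median log2 ratio of 0.53 and sums of 355 and 503 TPM, led by Prph and Pou4f1. Neuron markers were higher in replicate 2 for 11 of 12 (median 0.11, sums of 4360 and 4803 TPM, led by Tubb3 and Nefl). Skeletal muscle markers were lower for 7 of 7 (median -0.36, sums of 372 and 272 TPM, led by Actc1 and Acta1), and the 2 detected of 5 liver markers, Apoa2 and Afp, were lower as well (sums over the list of 11.4 and 7.44 TPM). Endothelial markers were all detected (5 of 5, sums of 110 and 114 TPM, led by Cldn5 and Kdr). The part of these cells in the ratios of the 29 genes was not tested.

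Of 13 factors listed for spinal inhibitory neurons, 11 stood lower in replicate 2, at a median log2 ratio of -0.11, where 41.2% of all genes were lower. Their relation to the ratios of Gad1, Gad2 and Slc32a1 was not tested. All 13 were at 1 TPM or more, led by Lhx5 (60.0 and 55.2 TPM), Lhx1 (58.0 and 57.0 TPM) and Pax8 (46.2 and 41.6 TPM), and Ptf1a, which selects GABAergic fate, stood at 8.21 and 6.39 TPM. Genes of spinal excitatory neurons were lower for 7 of 9 (median -0.05). They were led by the vesicular glutamate transporter Slc17a6 (36.6 and 39.6 TPM), Barhl1 (14.4 and 11.3 TPM) and Lhx9 (7.35 and 5.39 TPM), and Sim1 was under 1 TPM (0.89 and 0.99 TPM). Neurog2, which counts among the 11 (log2 ratio of -0.16), is a progenitor factor that is not particular to inhibitory neurons. Several Lhx factors of these lists are also made outside the neurons named, and Lhx1 stands among the neural tube markers too.

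Most genes around the pathway were detected. All 3 genes of GABA catabolism were detected, with Abat, the transaminase that breaks GABA down, at 85.8 and 92.4 TPM, Aldh9a1 at 24.3 and 25.5 and Aldh5a1 at 7.51 and 6.64 TPM. All 6 glycine metabolism genes were detected, led by Dld (121 and 123 TPM), Gcsh (89.3 and 90.1 TPM) and the serine hydroxymethyltransferase Shmt2 (50.3 and 53.3 TPM), enzymes that most cells use. All 12 scaffold and trafficking genes were detected, with list medians of 18.4 and 19.7 TPM, led by Dynll1 (1175 and 1118 TPM), Gabarap (478 and 492 TPM) and Gabarapl2 (314 and 318 TPM), which also serve other pathways. Of the GABA-B partners 8 of 10 were detected, led by the G protein subunits Gnai2 (382 and 403 TPM), Gnao1 (73.2 and 75.5 TPM) and Gnai1 (25.8 and 26.9 TPM), while the potassium channel gene Kcnj6 was at 0.46 and 0.22 TPM.

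All 6 kinase genes that regulate cation-chloride cotransporters were detected, led by Stk39 (36.6 and 38.4 TPM), Wnk1 (34.9 and 31.3 TPM) and Oxsr1 (15.5 and 16.5 TPM). Of 7 other cotransporters of the Slc12 family 4 were detected, and Slc12a7 (23.3 and 24.3 TPM) and Slc12a9 (20.1 and 20.7 TPM) each stood above both Slc12a2 and Slc12a5. The kidney cotransporters Slc12a1 (0.09 and 0.03 TPM) and Slc12a3 (0.00 and 0.03 TPM) were near 0. Among 4 other GABA receptor subunits Gabrp alone was detected, at 2.99 and 2.77 TPM, with Gabrr2 at 0.72 and 0.30 and Gabrr3 at 0.10 and 0.06 TPM. Of 9 other transporters 8 were detected, led by the amino acid carriers Slc38a2 (129 and 140 TPM) and Slc38a1 (63.0 and 60.4 TPM) and the taurine transporter Slc6a6 (26.1 and 27.1 TPM), and the betaine and GABA transporter Slc6a12 stood at 0.20 and 0.12 TPM.

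The leading model was compared between the pools. Of 14 genes with several models and 1 TPM or more in both libraries, the leading model was the same in both libraries for 14, a share near the 90.4% of all such genes. The shares of single models did move: coding models held 45.2% and 31.9% of Gad1 and 69.1% and 57.2% of Slc12a5. A further 9 of the 29 genes have a single model in the files. In 4 detected genes (Gabra2, Gabrg3, Gad1 and Gad2) the leading model was not labelled protein-coding in GENCODE M21.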

How the data were processed

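Total RNA of 2 pools of neural tubes was sequenced, per the labels. For each library the authors deposited a gene and a transcript table on assembly mm10 with GENCODE M4, per the deposited read-me texts, which name no program. Per its title a later series replaces this one, and that series was not used here. Expected counts, deposited per gene, are estimated reads and need not be whole. The deposited TPM and FPKM are corrected for effective length and depth, and the deposited percent values give a transcript's share of its gene. The level of the deposited TPM intervals is not stated. Names, positions and labels of transcripts came from GENCODE M21 (the same assembly) by identifier without version; 42462 of 43346 genes and all 91 transcripts of members matched. The Gad1 and Gad2 models shown had equal lengths in both releases, whereas 1 Gphn model and the retained-intron and short processed models of Slc12a5 did not. Number-named rows (26248) and 97 other rows that are not mouse genes entered neither the gene counts nor the totals given.

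From these were computed log2(TPM + 1) values, differences and ratios, exact (Clopper-Pearson) 95% intervals of count ratios, TMM factors (edgeR 4.0.16) and size factors (DESeq2 1.42.0) on rounded expected counts, in R 4.3.3 and Python 3.11.15. No molecular identifiers are in the tables, so intervals and floors cover counting error only. The replicates are pools whose relation is not given beyond a shared donor identifier, so their spread may be partly technical. The labels give no batch or preparation date. All 29 genes are named; of other pathway lists the 3 highest and up to 2 under 1 TPM, and of marker lists the 2 highest and those at 0 in both libraries. The genes and lists were chosen with earlier results of these data known, and S100b, Aqp4, Gfap, Ptf1a and Neurog2 were named outside this rule, after their values were seen. An item that the rule would name is not reported here. Simulated data with known ratios served to test the calculations. Alternatives covered the unit, the pseudocount, limits on low values, each library alone and, added after seeing the data, coding models only, counts per kilobase of the longest model and, for further pairs of genes, CPM.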

Additional observations from a re-analysis of the deposited data

How the results depend on the processing

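No paired analysis was possible because both libraries form 1 group. The order of the chloride transporters was the least stable result: the log2 ratio of Slc12a2 over Slc12a5 was -0.31 by gene TPM and turned to 0.13 in CPM, 0.27 over protein-coding models and 0.0146 by counts per kilobase of the longest model. The ratio of Slc6a9 over Slc6a5, 0.41 by gene TPM, turned to -0.72 in CPM, which is not corrected for length, and was 0.44 with a pseudocount of 0.1, 0.39 in FPKM, 0.55 by posterior mean TPM, 0.0138 over coding models and 0.23 by counts per kilobase. Gad2 over Gad1 kept its direction at 1.07, 1.00, 0.95, 1.26, 1.17 and 0.55 with a pseudocount of 0.1, FPKM, posterior mean TPM, CPM, coding models and counts per kilobase. Glra2 over Glra1 was 1.27 in CPM. The median difference of GABA-A minus glycine receptor subunits was -1.64 with a pseudocount of 0.1 and -1.04 in both FPKM and CPM. It was -1.07 by counts per kilobase and -1.51 over coding models, where Gabra2 has none and entered at 0, which lowers the GABA-A median. With each library alone these 5 values ranged from -0.38 to -0.24, 0.41 to 0.41, 1.02 to 1.03, 0.75 to 0.95 and -1.29 to -1.16. With a pseudocount of 0.1, 1 gene, Gabra5, was over 1.5-fold apart, against 6.04% of all genes. At a limit of 5 TPM fewer genes were compared, and 9 of 9 had the same leading model. The number detected, 23, ranged from 17 at 2 TPM to 25 at 0.5 TPM. Genes near 1 TPM rest on few counts, as Gabrg3 with 60 and 65, and Gabrg3 and Gabrb1 were not separated.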
